A study of Mus musculus with 48 samples.

Results

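Ventral skin was compared between the libraries labelled mid anagen (n = 2) and those labelled early anagen (n = 3), across all genes of a whole-skin RNA-seq table that holds 43 libraries of skin in 18 groups of body domain and hair cycle stage, within a series of 48 samples. The 5 libraries were chosen by their labels alone. All came from C57BL/6 mice with no other allele or agent in the labels, and age, sex and the number of mice behind a library are not given in the sources used here. Total RNA of whole skin was copied into full-length cDNA (SMART-seq2) and sequenced, and expression is given as FPKM, fragments scaled to transcript length and library size, a level per length. Early and mid anagen libraries of dorsal skin (2 and 3) and chin skin (2 and 2), of the same strain and protocol, served as the comparison. Nothing states that the libraries of a group came from separate mice, so each p-value measures only the spread between these samples, which may be technical.

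Hair follicles cycle through rest (telogen), growth (anagen) and involution (catagen). At the start of anagen, WNT signals and a fall in BMP signals activate stem cells of the bulge and the hair germ beneath it, and the epithelium grows down around the dermal papilla, a cluster of signalling fibroblasts. The matrix that forms there divides rapidly and gives rise to the inner root sheath and to the hair shaft, which fills with hair keratins and keratin-associated proteins while melanocytes pass pigment into it. Telogen is divided into a refractory phase, in which follicles do not answer growth signals, and a competent phase, in which they do.

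Of 16870 genes tested, 8703 differed between the labelled stages (51.6% of genes), 3558 of them higher in mid anagen (21.1%) and 5145 lower (30.5%). The test was limma on log2(FPKM + 1) with an adjusted p under 0.05, and each change given here is mid anagen minus early anagen on that log2 scale, which understates the change of genes at low levels. With more than every other gene called, a count of called members is to be read against these shares. The median change over all tested genes was −0.13. Scaling by the median of ratios moved that median to −0.02 and the share of calls that were higher from 40.9% to 52.4%, and quantile normalization moved them to −0.01 and 49.3%, so directions are clear only for genes well away from this shift.

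The 3 libraries labelled ventral early anagen went against their label. Over genes, their log2 levels were most like those of dorsal refractory telogen (Pearson r 0.954 to 0.96 for single libraries). This is a description over genes that share library protocol and build. These libraries had a mean r of 0.944 to 0.945 with ventral refractory telogen. With the libraries labelled early anagen it was 0.936 to 0.941 in chin skin and 0.921 to 0.924 in dorsal skin. They were alike among themselves (mean r 0.977 to 0.978), and the 2 mid anagen libraries were alike too (0.977). Between the stages r was 0.927 to 0.937. The 2 mid anagen libraries were nearest to the late anagen libraries of dorsal and ventral skin (0.962 to 0.965).

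**Figure D1:**
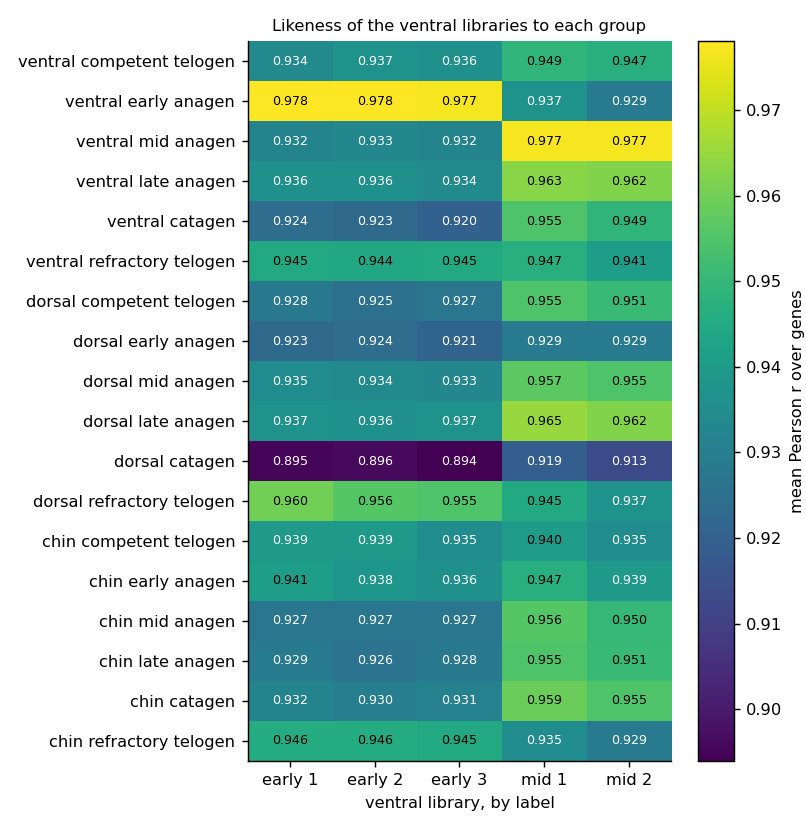
Mean Pearson correlation over genes (log2 scale, colour and printed value) of each of the 5 ventral libraries (columns) with the libraries of each of the 18 labelled groups (rows). Outside their own group, the early anagen libraries reach 0.955 to 0.960 with dorsal refractory telogen and the mid anagen libraries 0.962 to 0.965 with dorsal late anagen.

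Single genes chosen after their values were seen gave the same picture. Mki67, a marker of dividing cells, had a mean of 1.4 FPKM in the libraries labelled ventral early anagen, the lowest of the 18 groups, beside 1.89 in ventral refractory telogen, 11.6 in ventral competent telogen, 13.2 in dorsal early anagen and 14.5 in chin early anagen. The summed level of 40 cell cycle genes was 246 to 270 FPKM in these libraries, 258 to 270 in ventral refractory telogen, 226 to 236 in dorsal refractory telogen and 1530 to 1540 in dorsal early anagen. Means of Lef1, Msx1, Shh, Wif1, Wnt5a and Krt28, genes of the growing follicle, were likewise the lowest of all 18 groups. These libraries were not plain copies of refractory telogen either, since their means of Krt16, Krt6a, Krt36, Krt84, Krt15 and Pecam1 were the highest of the 18 groups. The ventral competent telogen libraries, labelled as the stage before, had 8.82 to 11.9 FPKM of Shh, 38.9 to 53 FPKM of Lef1 and a summed cell cycle level of 1220 to 1430 FPKM, and their mean of Msx1, 97.9 FPKM, was the highest of the 18 groups. In dorsal skin, keratin-associated protein genes took 13.1% and 13% of the FPKM of the competent telogen libraries. They took 0.164% and 0.139% in dorsal early anagen, labelled as the stage after. Whether stage labels are shifted among the ventral or dorsal groups was not tested. All comparisons below rest on the 3 libraries labelled ventral early anagen, no comparison is left without them, and "early anagen" in ventral skin is used below only as their label.

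**Figure D2:**
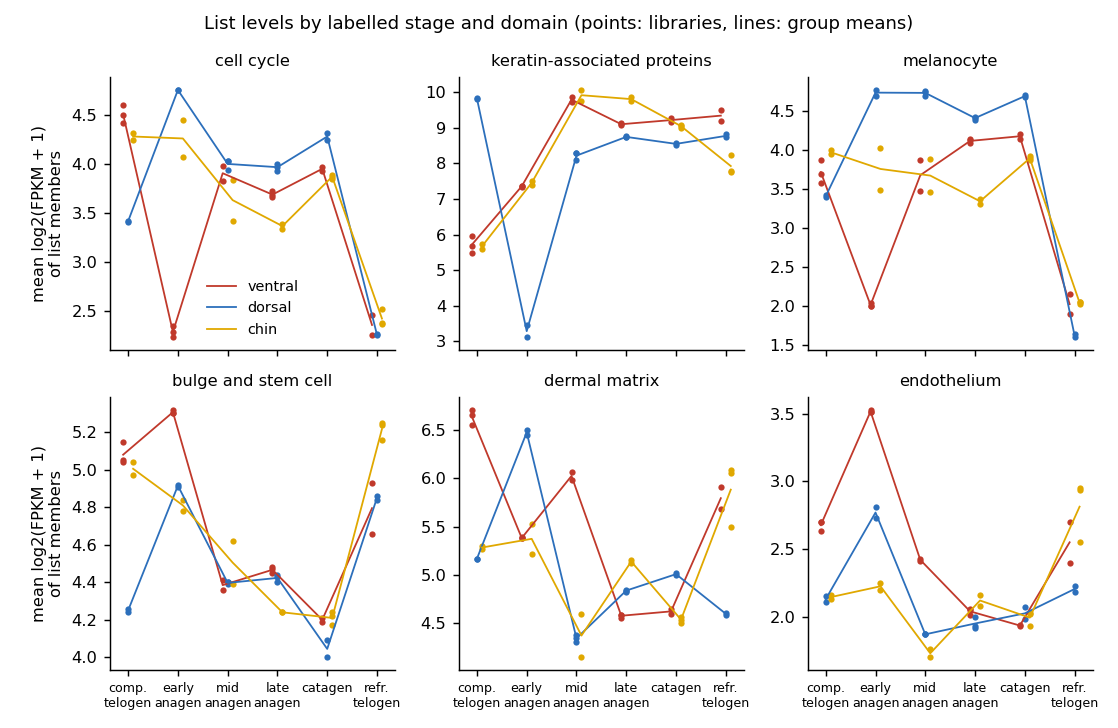
Mean log2(FPKM + 1) over the members of 6 gene lists (y axes) in each library (points) by labelled hair cycle stage (x axis), with lines through the group means of ventral, dorsal and chin skin. The cell cycle mean of the ventral early anagen libraries lies with the refractory telogen libraries of all 3 domains, and far below dorsal and chin early anagen.

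The promoters of a few genes that carry the results are shown here for what they look like in sequence. Each is the 250 bases before the start of the gene in RefSeq (GRCm38.p6), written 5′ to 3′ on the gene's strand. Motifs were searched on both strands, and a match is a description of letters, not a site in use. The first set is of keratin-associated protein genes of one cluster on chromosome 16, of which Krtap15, Krtap14 and Krtap19-2 were among the genes with the largest rise in mid anagen and Krtap20-2 had the second largest fall. Capitals mark the TATA motif TATATAA in the genes that rose and another TATA motif, TATAAA, in Krtap20-2. They also mark the core bound by LEF1 and TCF factors, CTTTGA, which was found in Krtap15 and Krtap14 but not in Krtap19-2 or Krtap20-2. The windows are chr16:88828759-88829008 on the plus strand for Krtap15, chr16:88826146-88826395 on the minus strand for Krtap14, chr16:88874270-88874519 on the minus strand for Krtap19-2 and chr16:89205611-89205860 on the plus strand for Krtap20-2.
Krtap15: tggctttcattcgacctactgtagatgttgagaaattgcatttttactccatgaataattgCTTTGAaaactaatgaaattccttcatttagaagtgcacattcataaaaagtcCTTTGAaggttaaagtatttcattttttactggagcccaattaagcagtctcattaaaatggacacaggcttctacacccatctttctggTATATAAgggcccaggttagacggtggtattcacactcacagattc
Krtap14: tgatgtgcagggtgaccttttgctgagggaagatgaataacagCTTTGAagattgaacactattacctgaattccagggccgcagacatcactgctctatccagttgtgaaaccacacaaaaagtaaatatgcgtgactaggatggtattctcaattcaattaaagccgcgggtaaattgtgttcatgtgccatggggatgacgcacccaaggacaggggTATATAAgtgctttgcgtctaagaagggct
Krtap19-2: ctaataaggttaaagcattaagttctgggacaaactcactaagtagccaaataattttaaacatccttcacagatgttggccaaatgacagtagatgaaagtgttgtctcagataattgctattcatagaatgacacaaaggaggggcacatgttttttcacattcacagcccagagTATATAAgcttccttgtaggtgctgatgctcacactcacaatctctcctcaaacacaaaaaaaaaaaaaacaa
Krtap20-2: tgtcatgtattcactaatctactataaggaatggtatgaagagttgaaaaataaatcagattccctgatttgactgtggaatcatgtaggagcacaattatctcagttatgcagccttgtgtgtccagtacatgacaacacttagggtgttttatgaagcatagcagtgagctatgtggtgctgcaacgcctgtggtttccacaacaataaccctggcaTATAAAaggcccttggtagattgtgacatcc
Both the genes that rose and the one that fell carry a TATA motif. TATAAA was found in 40 of the 50 promoters of keratin-associated protein genes in the table, against 13.0% of all 27025 promoters, and TATATAA in 17 of 50 against 3.26%. CTTTGA was found in 12 of 50 and in 5 of 9 hair keratin promoters, against 14.0% of all promoters.

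The second set has the pigment gene Tyrp1, the cyclin genes Ccnb2 and Ccnb1, and the immediate early gene Fos. Capitals mark CATGTG, the E-box core that MITF binds, in Tyrp1 (chr4:80833963-80834212, plus strand), CCAAT in Ccnb2 (chr9:70421555-70421804, minus strand) and Ccnb1 (chr13:100786487-100786736, minus strand), and TGACGT, a CRE-type core, together with TATAAA in Fos (chr12:85473640-85473889, plus strand).
Tyrp1: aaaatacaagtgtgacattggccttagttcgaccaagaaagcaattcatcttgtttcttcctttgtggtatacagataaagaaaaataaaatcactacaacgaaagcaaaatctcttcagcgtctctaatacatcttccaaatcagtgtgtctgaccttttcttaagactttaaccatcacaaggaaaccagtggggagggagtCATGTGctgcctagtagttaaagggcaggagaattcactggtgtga
Ccnb2: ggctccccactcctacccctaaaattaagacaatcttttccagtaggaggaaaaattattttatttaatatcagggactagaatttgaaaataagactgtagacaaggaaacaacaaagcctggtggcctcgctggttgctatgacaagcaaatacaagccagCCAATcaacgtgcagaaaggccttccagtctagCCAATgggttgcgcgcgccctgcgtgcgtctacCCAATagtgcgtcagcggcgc
Ccnb1: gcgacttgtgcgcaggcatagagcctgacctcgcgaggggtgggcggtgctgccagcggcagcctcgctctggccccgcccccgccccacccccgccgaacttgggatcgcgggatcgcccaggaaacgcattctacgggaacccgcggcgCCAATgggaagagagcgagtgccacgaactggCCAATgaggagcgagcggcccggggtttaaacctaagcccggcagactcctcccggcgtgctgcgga
Fos: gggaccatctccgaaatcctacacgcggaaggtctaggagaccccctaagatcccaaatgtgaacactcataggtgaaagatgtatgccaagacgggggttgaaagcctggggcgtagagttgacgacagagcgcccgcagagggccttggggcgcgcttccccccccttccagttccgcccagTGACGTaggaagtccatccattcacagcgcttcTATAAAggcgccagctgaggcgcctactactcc
CATGTG was found in 7 of 13 melanocyte gene promoters and 17 of 50 of keratin-associated protein genes, against 12.2% of all promoters. CCAAT was found in 26 of 33 cell cycle promoters, against 34.5% of all promoters. It was also in 11 of 15 promoters of circadian clock genes, of which 10 of 17 fell in mid anagen. TTTGAA, also searched, was found in 9 of 33 cell cycle and 8 of 9 hair keratin promoters, against 16.3% of all promoters. TGACGT was found in 4 of 11 immediate early gene promoters, against 6.56% of all promoters.

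Structural genes of the hair shaft were higher in mid anagen. Of 56 keratin-associated protein genes tested (57 in the table), which code for the proteins that cross-link keratin filaments in the shaft, 53 rose and 2 fell, with a median change of 2.55. Krtap15 stood at 186, 217 and 196 FPKM in the early anagen libraries and at 8851 and 7743 FPKM in mid anagen, a change of 5.37 (SE 0.1, adjusted p = 5.12e-06). Krtap19-2 went from 50.7, 52.6 and 50.1 FPKM to 2081 and 2535 FPKM, a change of 5.46. Both are far apart between the stages, and libraries that did not overlap between the groups were found for 70.0% of all genes tested.

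The 2 most abundant members of this family moved less. Krtap7-1 stood at 4202, 4298 and 4565 FPKM in early anagen and at 17651 and 15892 FPKM in mid anagen (change 1.94, SE 0.1). Krtap22-2 rose from 6303, 6184 and 6278 FPKM to 13592 and 13135 FPKM (change 1.09, SE 0.08). The family as a whole took 4.1% to 4.25% of the FPKM of the early anagen libraries and 14.5% of both mid anagen libraries. Since FPKM are relative to the whole library, the comparison was repeated on values rescaled without these genes and the mitochondrial genes, which gave 8676 calls, 43.4% of them higher.

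The members that fell were Krtap20-2 and Krtap6-3. Krtap20-2 had 1032, 866 and 807 FPKM in early anagen and 27 and 30.5 FPKM in mid anagen (change −4.92, SE 0.12, adjusted p = 9.96e-06). Krtap6-3 had 2224, 2013 and 2010 FPKM against 394 and 508 FPKM (change −2.21, SE 0.12). In ventral refractory telogen their means were higher still, at 2710 and 6520 FPKM, whereas in the early anagen libraries of dorsal skin they were 0.65 and 1.54 FPKM. Keratin-associated protein genes are a family of close copies, and how reads shared between copies were split is uncertain for each of them.

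The hair keratins, which form the filaments of the shaft, divided in the same way, with 12 of 14 higher and 2 lower (median change 2.1). Krt35, a keratin of the matrix and cuticle, had 87.6, 100 and 105 FPKM in early anagen and 755 and 791 FPKM in mid anagen (change 2.98, SE 0.09). Krt86, Krt31 and Krt33a, of the cortex, rose by 2.78, 2.67 and 2.67. The exceptions, named after their values were seen, were Krt36 (145, 152 and 147 FPKM against 26.9 and 30.3 FPKM, change −2.33) and Krt84 (108, 109 and 110 FPKM against 38.9 and 41.6 FPKM, change −1.42). No library of one stage entered the range of the other for any of these genes.

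In the inner root sheath, the sleeve that moulds the growing shaft, 11 of 12 genes rose and none fell (median change 1.9). Krt28 stood at 112, 126 and 117 FPKM in early anagen and 1296 and 1392 FPKM in mid anagen (change 3.5, SE 0.08, adjusted p = 8.43e-06). Krt72 and Krt71, type II keratins of the same layers, rose by 2.84 and 2.3. Tchh, the trichohyalin that fills these cells, rose by 1.91.

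**Figure D3:**
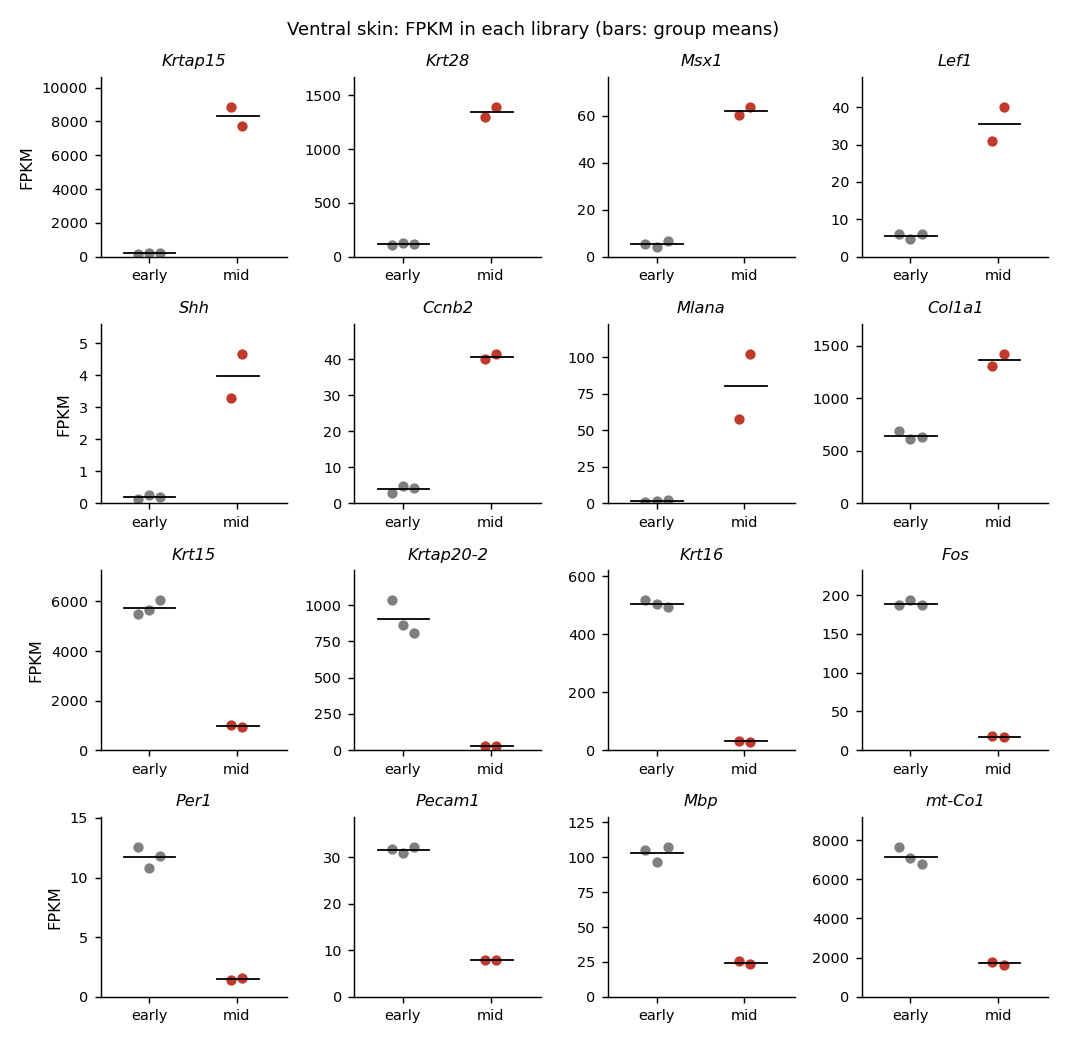
FPKM (linear y axes starting at 0) of 16 genes in each of the 3 ventral early anagen (grey) and 2 mid anagen (red) libraries, with bars at the group means. Krtap15, Krt28, Msx1, Lef1, Shh, Ccnb2, Mlana and Col1a1 lie higher in both mid anagen libraries and the other 8 genes lower, with no overlap in any panel.

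Of 18 transcription factors of the matrix and shaft, 13 rose and 2 fell (median change 1.77). Msx1, a homeobox factor of the matrix, had 5.64, 4.34 and 6.62 FPKM in early anagen and 60.3 and 63.6 FPKM in mid anagen (change 3.28, SE 0.16, adjusted p = 6.35e-05). Msx2 rose by 2.58. Lef1, the nuclear partner of β-catenin, had 6, 4.78 and 6.2 FPKM against 30.9 and 40 FPKM (change 2.45, SE 0.15). Hoxc13, a homeobox factor that hair keratin genes need, rose by 1.79 and Dlx3 by 1.88. Nfix fell (change −1.64), as did Hr, named after its values were seen.

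Cell cycle genes were higher in mid anagen as a group, 38 of 40 rising and none falling (median change 1.55). Ccnb2, a mitotic cyclin, had 2.94, 4.76 and 4.26 FPKM in early anagen and 40 and 41.5 FPKM in mid anagen (change 3.08, SE 0.17, adjusted p = 0.000102). Its relatives Ccna2 and Ccnb1 rose by 2.84 and 2.8, and Ube2c, which drives mitotic exit, by 2.71. Pcna, the sliding clamp of DNA polymerase, was at 43.9, 49.2 and 49.5 FPKM against 65.9 and 74 FPKM (change 0.55, SE 0.09). Rrm2 and Tyms, of nucleotide synthesis, rose by 1.16 and 1.15. The early anagen levels set beside these rises are those of the libraries described above as lying with refractory telogen.

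Pigment cell genes rose in 15 of 19 cases and fell in 3 (median change 1.61). Mlana, a protein of early melanosomes, had 1, 1.89 and 2.37 FPKM in early anagen and 57.7 and 102 FPKM in mid anagen (change 4.86, SE 0.31, adjusted p = 0.000158). Tyrp1, an enzyme of eumelanin synthesis, had 1.85, 2.16 and 2.31 FPKM against 25.5 and 41.8 FPKM (change 3.44, SE 0.21). Pmel, the melanosome fibril protein, rose by 3.47 and Trpm1, a channel of melanocytes, by 3.31. The second mid anagen library was above the first for all 4 of these genes, and both were above every early anagen library. Rab38 fell slightly (change −0.4), as did Kitl and Sox10, named after their values were seen. In whole skin, more cells of a type and more RNA per cell cannot be told apart, here or in any group below.

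WNT ligands, the secreted signals that start and sustain anagen, rose in 7 of 13 cases and fell in 2 (median change 0.63). Wnt5a, a ligand of the non-canonical branch, had 5.5, 5.42 and 4.3 FPKM in early anagen and 17.2 and 20.2 FPKM in mid anagen (change 1.7, SE 0.13, adjusted p = 0.000323). Wnt11 rose by 1.35, and Wnt10a and Wnt10b, canonical ligands of the follicle epithelium, by 1.03 and 0.85. Wnt7b fell (14.9, 13.6 and 15.2 FPKM against 9.39 and 6.22 FPKM, change −0.84), as did Wnt16, whose call was lost in 11 of 14 alternatives. Wnt4 gave a change of 0.22 with an adjusted p of 0.171.

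Of 18 WNT receptors and co-receptors, 3 rose and 8 fell, or 4 and 6 under the median of ratios. Their median change was −0.21, beside −0.13 over all genes. Lgr5, an R-spondin receptor and marker of the bulge and hair germ, fell from 13.5, 12.2 and 12.1 FPKM to 3.88 and 4 FPKM (change −1.46, SE 0.09). Its relative Lgr6 and the Frizzled receptor Fzd7 both fell, by 0.74 on the log2 scale. Ror2, a receptor of Wnt5a, rose by 1.18, Fzd10 by 0.88 and Fzd1 by 0.62. Lgr4 gave a change of 0.15 with an adjusted p of 0.144.

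Of 14 WNT antagonists, 4 rose and 4 fell, or 5 and 3 under the median of ratios, beside shares of 21.1% and 30.5% over all genes. Wif1, which binds WNT ligands outside the cell, had 2.62, 2.81 and 2.82 FPKM in early anagen and 17.9 and 25.7 FPKM in mid anagen (change 2.58, SE 0.16). Notum, which strips the lipid from WNT ligands, and Sfrp4 and Sfrp1 rose by 0.94, 0.8 and 0.53. Dkkl1 fell from 110, 121 and 119 FPKM to 40.7 and 33.5 FPKM (change −1.63, SE 0.1), and Sfrp5 and Sostdc1 fell by 1.11 and 0.74 on the log2 scale, as did Dkk3.

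Among WNT response genes, 9 of 15 rose and 2 fell (median change 0.53). The feedback inhibitors Nkd2 and Znrf3 rose by 1.96 and 1.9, with Znrf3 at 12.4, 12.4 and 12 FPKM in early anagen and 48.4 and 48.8 FPKM in mid anagen. Bambi, a decoy receptor that answers to WNT and BMP alike, had 12, 12.7 and 12.2 FPKM against 69.8 and 70.8 FPKM (change 2.42, SE 0.07, adjusted p = 1.57e-05). Axin2, the general feedback gene of canonical WNT signalling, went the other way, from 6.07, 5.02 and 5.37 FPKM to 2.74 and 2.64 FPKM (change −0.81, SE 0.11). Axin2 and Lgr5 were the 2 response genes that fell.

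BMP signals hold follicles in rest and later guide differentiation of the shaft. Of 8 genes tested in the BMP ligand list, 3 rose and 1 fell (median change 0.05). The list includes Bmp1, a protease that is not itself a BMP ligand. Bmp8a had 4.51, 4.58 and 4.03 FPKM in early anagen and 17.9 and 18.8 FPKM in mid anagen (change 1.85, SE 0.09), and Bmp3 rose by 0.79, Bmp1 also rising with a call lost in 6 of 15 alternatives. Bmp2 and Bmp4, the ligands most studied in the hair cycle, overlapped between the stages, with Bmp2 at 11.5, 11.9 and 11.2 FPKM against 11.8 and 11.4 FPKM (change 0.01, SE 0.08) and Bmp4 at 27.5, 27.1 and 30.1 FPKM against 27.9 and 27.5 FPKM (change −0.02, SE 0.08). The sign of both depends on the scaling. Gdf10 fell by 0.44 on the log2 scale, a call lost in 8 of 15 alternatives.

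Receptors and intracellular mediators of BMP were lower in 8 of 10 cases and higher in none (median change −0.4), and the count was 4 under the median of ratios. Bmpr1a stood at 20.3, 18.8 and 18.5 FPKM against 14.2 and 14.7 FPKM (change −0.39). Acvrl1 and Smad5 fell by 0.95 and 0.79. BMP antagonists fell in 7 of 14 cases (4 under the median of ratios) and rose in 2 (median change −0.3). Fst, the activin and BMP binder follistatin, fell from 29.8, 31.2 and 30.5 FPKM to 18.8 and 18.8 FPKM (change −0.67), and Grem1 fell by 0.48, a call lost in 8 of 14 alternatives. Fstl1 rose by 0.97, Bmper, with a call lost in 4 of 14 alternatives, being the other member that rose. Of 9 BMP response genes, Msx1, Msx2, Bambi, Smad7 and Smad6 rose, the last ones by 1.01 and 0.67. Id1 fell from 137, 181 and 179 FPKM to 88.8 and 97.7 FPKM (change −0.81, SE 0.14), and Id2 by 0.35, a call lost in 7 of 15 alternatives.

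Hedgehog genes were called in both directions. Shh, the ligand made by the germ and matrix, was near the bottom of the scale in early anagen at 0.14, 0.27 and 0.2 FPKM and stood at 3.3 and 4.67 FPKM in mid anagen (change 2.04, SE 0.16, adjusted p = 0.000352). Hhip, Gli1 and Ptch1, which it switches on, rose by 1.05, 0.68 and 0.33, the call of Ptch1 being lost in 8 of 14 alternatives. Smo, the signal transducer, and the co-receptors Gas1 and Cdon fell by 0.54, 0.65 and 0.85. Over the 14 genes tested, 6 rose and 5 fell (3 under quantile normalization), with a median of −0.08 that changed sign with the scaling. Gli3 was also called higher, and Boc and Dhh lower. The call of Gli3 was lost in 8 of 14 alternatives, that of Boc in 6 of 15 and that of Dhh in 3 of 14.

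Of 26 ligands and receptors of the FGF, EGF and TGFβ families, 4 rose and 15 fell, or 10 under the median of ratios (median change −0.36). Fgf5, the signal that ends anagen, had 0.57, 0.57 and 0.8 FPKM in early anagen and 11.1 and 10.9 FPKM in mid anagen (change 2.87, SE 0.12, adjusted p = 4.24e-05). Areg and Fgf22 rose by 1.4 and 1.38, Tmeff1 being the remaining member that rose. Btc, an EGF receptor ligand, fell from 59, 59 and 57.2 FPKM to 18 and 16.1 FPKM (change −1.72, SE 0.08). Fgf18, a signal of the resting bulge, fell by 1.26. The receptors Fgfr1, Fgfr2, Fgfr3, Egfr and Erbb3 all fell, by 0.28 to 0.76 on the log2 scale, with Egfr and Fgfr2 no longer called under the median of ratios.

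Insulin-like growth factor and Notch genes were called in both directions. Igfbp2, an insulin-like growth factor binder, rose from 6.56, 7.72 and 8.33 FPKM to 61 and 46.2 FPKM (change 2.67, SE 0.15), while Igfbp3 fell by 1.62 on the log2 scale. Across 10 genes of that list 2 rose and 3 fell, shares close to those over all genes, and under the median of ratios 4 rose and 2 fell. The other calls were Igfbp7, higher, and Igfbp5 and Igf2r, lower, that of Igf2r being lost in 9 of 15 alternatives. Of 15 Notch pathway genes, 5 rose and 8 fell, or 5 under quantile normalization. Hes1, a target of Notch, had 45.2, 48.8 and 49.7 FPKM against 144 and 149 FPKM (change 1.6, SE 0.07), and the ligand Jag1 rose by 0.96, as did Heyl, Nrarp and Rfng. The receptor Notch3 fell by 1.18 on the log2 scale.

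Markers of the bulge and other epithelial stem cells were lower in mid anagen in 16 of 20 cases and higher in 1, Gli1 (median change −0.94). Under the median of ratios 13 were lower and 2 higher. Krt15, a keratin of bulge and basal cells, had 5511, 5659 and 6043 FPKM in early anagen and 1029 and 949 FPKM in mid anagen (change −2.54, SE 0.09, adjusted p = 2.11e-05). Col17a1, the hemidesmosomal collagen, fell from 138, 137 and 142 FPKM to 28.1 and 29.7 FPKM (change −2.23, SE 0.06). Nfatc1, a factor of stem cell quiescence, and Lrig1 fell by 2.07 and 1.52. Sox9 fell less (change −0.34), and its call was lost in 6 of 15 alternatives. Ventral refractory telogen had a mean of 1860 FPKM of Krt15, well below the 5740 FPKM of the early anagen libraries.

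The interfollicular epidermis, which covers the surface between follicles, showed 16 of 22 genes lower and 3 higher (median change −1). Krt14 and Krt5, the basal keratin pair, fell by 1.61 and 1.79, with Krt5 at 2234, 2194 and 2237 FPKM against 605 and 679 FPKM. Sbsn and Krtdap, made by suprabasal cells, fell by 2.16 and 1.96. Ivl, involucrin, rose instead, from 69.6, 73.7 and 73.5 FPKM to 256 and 314 FPKM (change 1.96, SE 0.1), the other members that rose being Tgm3 and Dsc1.

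Genes of the cornified envelope, the protein shell of dead keratinocytes, split evenly, with 10 of 31 higher and 11 lower (median change −0.03). Sprr1b had 8.85, 7.66 and 9.25 FPKM in early anagen and 268 and 333 FPKM in mid anagen (change 4.97, SE 0.12). Sprr2h rose by 3.54 and Sprr1a by 1.11, while Lce1m and Sprr4 fell by 1.33 and 1.28. These small genes lie in families of close copies too, so their split is uncertain.

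Among keratins of the companion layer and of stressed epidermis, Krt16 had 516, 503 and 492 FPKM in early anagen and 31.1 and 29.5 FPKM in mid anagen (change −4.01, SE 0.06, adjusted p = 5.12e-06). Krt6a fell with it (806, 813 and 769 FPKM against 137 and 149 FPKM, change −2.47). Krt75, of the companion layer, and Krt17 rose by 0.91 and 0.44. These were the 4 members tested. The mean of Krt16 in the other 17 groups did not pass 117 FPKM, that of chin refractory telogen.

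Among the other genes with the largest changes were several outside the fixed lists. Wfdc3, a whey acidic protein family member, had 73.2, 79 and 77.9 FPKM in early anagen and 0.67 and 0.69 FPKM in mid anagen (change −5.53, SE 0.08, adjusted p = 5.12e-06), the largest fall by the rule used. Tm4sf4 stood at 0.36, 0.39 and 0.39 FPKM against 45.2 and 46.6 FPKM (change 5.09, SE 0.09). Crisp1, Krtap19-1, Krtap14, Krtap4-13 and Gpnmb rose by 4.58 to 4.9. On the falling side, Cyp2e1, a cytochrome P450, Angptl7, Myoc, Clec2d and Ifitm6 had changes of −3.77, −3.33, −3.12, −2.9 and −2.87.

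**Figure D4:**
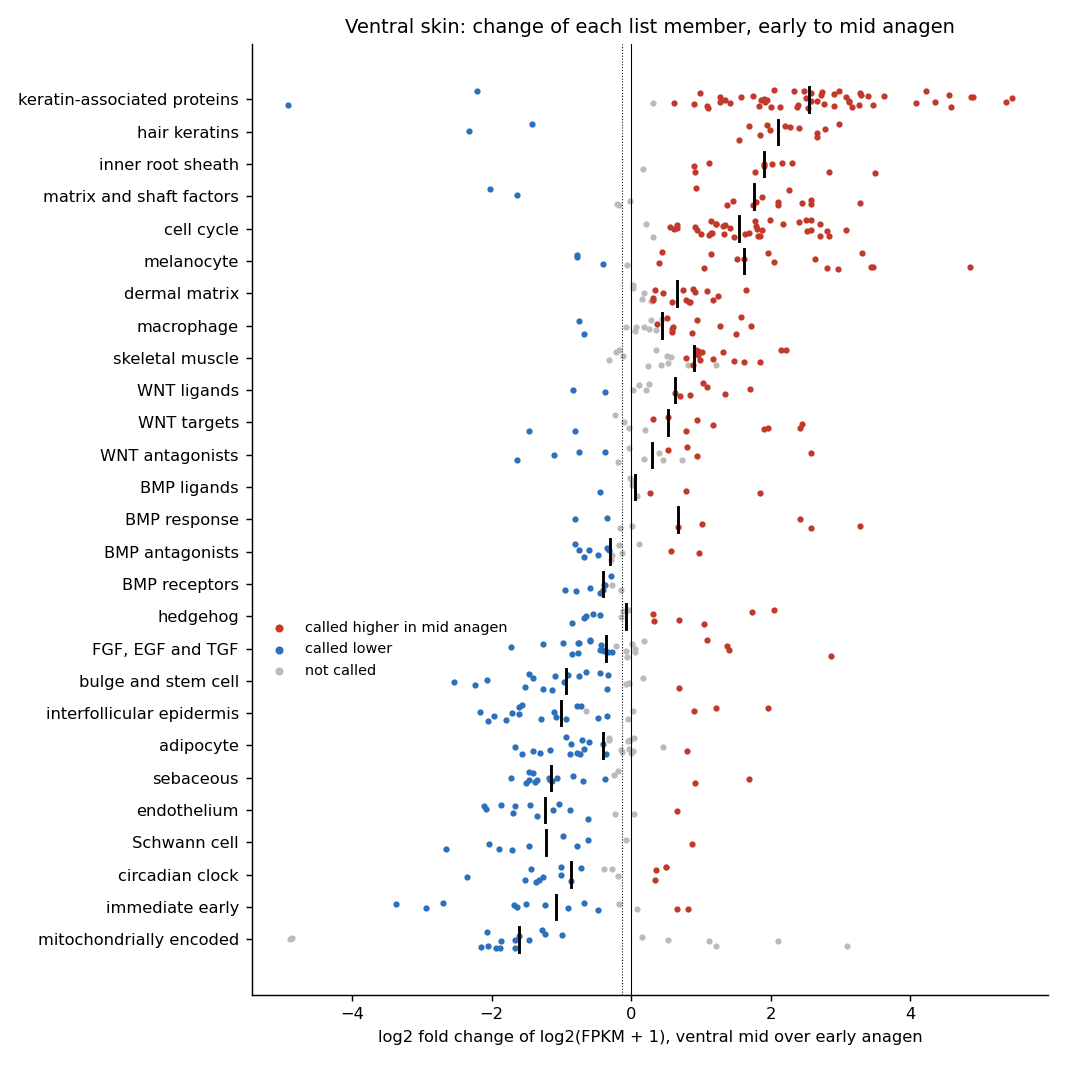
Change from early to mid anagen in ventral skin (x axis, log2 scale) of each tested member (point) of 27 gene lists (rows), coloured by whether the gene was called higher, called lower or not called. Vertical bars mark list medians and the dotted line the median of all genes, −0.13. Hair shaft, sheath, cell cycle and melanocyte lists lie to the right of it, epidermal, endothelial and nerve lists to the left.

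Genes of the dermal matrix, the collagens and their partners made by fibroblasts, rose in 15 of 20 cases and fell in none (median change 0.66). Col1a1 had 686, 618 and 629 FPKM in early anagen and 1309 and 1426 FPKM in mid anagen (change 1.08, SE 0.08, adjusted p = 0.00028). Dpt, dermatopontin, rose from 55.2, 61.6 and 61.2 FPKM to 197 and 181 FPKM (change 1.65, SE 0.08). Mfap5 and Col1a2 rose by 1.25 and 1.17. Genes of the dermal papilla, in contrast, were higher in 6 of 23 cases and lower in 10 (median change −0.13), and their median changed sign under quantile normalization.

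Vessels and nerves were lower. Of 14 endothelial genes, 11 fell and 1 rose, Lyve1, a gene of lymphatic vessels (median change −1.23). Pecam1, the junction protein CD31, had 31.7, 31 and 32.2 FPKM in early anagen and 7.98 and 7.96 FPKM in mid anagen (change −1.86, SE 0.07, adjusted p = 3.16e-05). Emcn and Vwf fell by 2.11 and 2.08. Of 10 nerve and Schwann cell genes, 8 fell and 1 rose, Ncam1 (median change −1.22). Mbp, myelin basic protein, fell from 105, 96.6 and 107 FPKM to 25.7 and 23.2 FPKM (change −2.03, SE 0.08). Summed over each list, the endothelial genes came to 243 to 254 FPKM in early anagen and 99.6 to 103 FPKM in mid anagen, and the nerve genes to 432 to 463 FPKM and 135 to 139 FPKM.

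Sebaceous gland genes fell in 14 of 18 cases and rose in 2 (median change −1.15). Scd1, a fatty acid desaturase, fell from 254, 235 and 239 FPKM to 104 and 114 FPKM (change −1.14, SE 0.07), and Cidea and Krt79 by 1.4 and 1.38. Elovl3, which lengthens fatty acids, rose by 1.69, Fads2 being the other. Fat cell genes fell in 15 of 27 cases and rose in 1, Lipe (median change −0.41). Fabp4, the fatty acid carrier of adipocytes, fell from 1432, 1409 and 1447 FPKM to 883 and 793 FPKM (change −0.77, SE 0.08).

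Skeletal muscle genes rose in 14 of 26 cases and fell in none (median change 0.91), with wide differences between the mid anagen libraries. Myl1, a myosin light chain, had 53.5, 60.6 and 56.2 FPKM in early anagen and 210 and 341 FPKM in mid anagen (change 2.22, SE 0.2). Acta1, skeletal muscle actin, had 97, 108 and 101 FPKM against 266 and 519 FPKM (change 1.85, SE 0.27). Their summed level was 579 to 620 FPKM in early anagen and 1170 and 2000 FPKM in mid anagen, and the part of a muscle layer in the samples was not tested.

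Among immune cells, macrophage genes rose in 11 of 21 cases and fell in 2, Mertk and Cd14 (median change 0.44). Lyz2, lysozyme, had 38.2, 40.2 and 40.3 FPKM in early anagen and 124 and 105 FPKM in mid anagen (change 1.5, SE 0.09), and the complement gene C1qc rose by 1.72. Mast cell genes rose in 4 of 7 cases, Cma1, Tpsb2, Mcpt4 and Cpa3, all proteases of the granule, by 1.94, 1.8, 1.46 and 1.33, and Mrgprb2 fell. Of 9 T cell and Langerhans cell genes, 5 fell and none rose, with Cd3e at 7.32, 5.61 and 4.71 FPKM against 1.25 and 1.42 FPKM (change −1.54). S100a8, an alarmin of neutrophils and stressed keratinocytes, rose by 2.31, 2 of 5 neutrophil genes rising and none falling, while Cxcr2 and Retnlg, which mark neutrophils more closely, stayed at or below 3.99 FPKM in every library.

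Immediate early genes, which answer within minutes to signals and to tissue handling, fell in 10 of 14 cases and rose in 2, Junb and Egr3 (median change −1.07). Fos had 187, 193 and 187 FPKM in early anagen and 17.8 and 17.1 FPKM in mid anagen (change −3.37, SE 0.06, adjusted p = 5.12e-06). Nr4a1 and Fosb fell by 2.94 and 2.7, whereas Junb rose by 0.82. Circadian clock genes fell in 10 of 17 cases and rose in 3 (median change −0.86). Per1 fell from 12.6, 10.8 and 11.8 FPKM to 1.41 and 1.58 FPKM (change −2.35, SE 0.11), and Dbp and Nr1d1, outputs of the clock, by 1.52 and 1.44. Those that rose were Bhlhe40, Bhlhe41 and Nfil3, the calls of Bhlhe40 and Bhlhe41 each being lost in 6 of 15 alternatives. The hour at which skin was taken is not given in the sources used here, and its part in these changes was not tested.

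Mitochondrially encoded genes fell in 13 of 21 cases and rose in none (median change −1.61). mt-Nd1 had 13882, 11839 and 11693 FPKM in early anagen and 3605 and 3211 FPKM in mid anagen (change −1.87, SE 0.12). These genes took 11.6%, 10.4% and 7.52% of the FPKM of the early anagen libraries and 4.09% and 3.04% of the mid anagen libraries, so this share moves with every comparison above. Genes above 0 numbered 23909 to 24791 in early anagen and 20416 to 21388 in mid anagen. Estimated fragments per library were 13267194 to 18959296 in early anagen and 10541231 to 13440793 in mid anagen. The part of sequencing depth in the number of genes was not tested.

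The change in ventral skin was then set against that in dorsal and chin skin, in one limma fit of 14 libraries and 19203 genes that tests the difference between changes. It differed from dorsal skin for 6590 genes (34.3%), 4041 of them higher in ventral skin, and from chin skin for 3520 genes (18.3%), 2144 of them higher. The share of higher calls against dorsal skin was 61.3%, and 50.5% under the median of ratios. Against chin skin it was 60.9%, with 54.7% under the median of ratios, 51.7% under quantile normalization and 73.1% on values rescaled to TPM. The chin count rests on few libraries: it was 1780 without the second chin early anagen library, 2294 without the second chin mid anagen library, 2081 without the second ventral mid anagen library and 5464 without the first chin mid anagen library. In dorsal skin itself 1657 genes were higher in mid anagen (8.63%) and 5576 lower (29.0%), and in chin skin 607 were higher (3.16%) and 1971 lower (10.3%).

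Hair shaft genes rose in all 3 domains. Keratin-associated protein genes were higher in 56 of 56 cases in dorsal skin (median change 4.31) and 50 of 56 in chin skin (2.64). The change in ventral skin was the smaller one for 38 of them against dorsal skin, where early anagen libraries held almost none: their summed level was 1250 to 1450 FPKM there, 19800 to 21300 FPKM in chin early anagen and 38200 to 39200 FPKM in ventral early anagen. Krtap20-2 rose by 3.27 in dorsal skin and 3.42 in chin skin, and the ventral change of −4.92 differed from them by −8.19 (SE 0.38) and −8.34 (SE 0.4). Krt16 likewise rose by 1.63 and 1.71 in dorsal and chin skin, giving differences of −5.64 and −5.72.

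Cell cycle genes went in opposite directions. None of the 40 rose and 36 fell in dorsal skin (median change −0.77), none rose and 21 fell in chin skin (−0.65), and the ventral change was the higher one for 40 against dorsal skin and for 38 against chin skin. Ccnb2 had means of 49.8 and 29.1 FPKM in dorsal early and mid anagen and 35.9 and 26.3 FPKM in chin, beside 3.99 and 40.8 FPKM in ventral skin, so the domains were closer in mid anagen than in early anagen. The difference in its change was 3.84 (SE 0.34) against dorsal skin and 3.53 (SE 0.36) against chin skin.

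**Figure D5:**
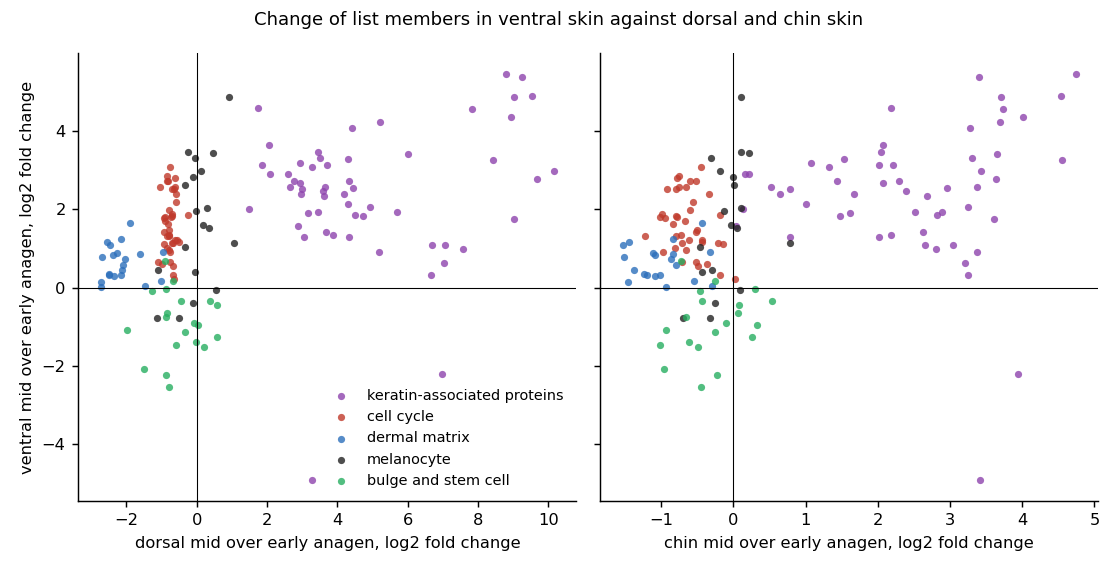
Change from early to mid anagen (log2 scale) in ventral skin (y axis) against dorsal skin (left, x axis) and chin skin (right, x axis with its own range) for the tested members of 5 lists. Cell cycle (red) and dermal matrix (blue) members lie above 0 in ventral skin and mostly below 0 in the other domains.

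Lef1, Msx1, Wif1 and Shh rose in ventral skin from early anagen means below those of both other domains. Lef1 had means of 5.66 and 35.5 FPKM in ventral early and mid anagen, 40.5 and 39.7 FPKM in dorsal skin and 52.8 and 37.7 FPKM in chin skin, and the ventral change was higher by 2.48 (SE 0.24) and 2.93 (SE 0.26). Msx1 gave differences of 4.09 and 3.99, and Wif1 of 3.15 and 3.65. Shh had means of 10.8 and 3.66 FPKM in dorsal skin and 5.09 and 4.32 FPKM in chin skin, against 0.203 and 3.98 FPKM in ventral skin (differences 3.38 and 2.23). Mid anagen means of Shh thus lay between 3.66 and 4.32 FPKM in all 3 domains.

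Pigment genes differed between domains in the same way, the ventral change being higher for 14 of 19 against dorsal skin and 13 against chin skin. Mlana had dorsal means of 138 and 263 FPKM and chin means of 89.9 and 93.4 FPKM, beside 1.75 and 80 FPKM in ventral skin. The differences in change were 3.93 (SE 0.48) and 4.76 (SE 0.5).

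Dermal matrix genes also went in opposite directions. All 20 genes fell in dorsal skin (median change −2.21) and 16 fell in chin skin (−1.05), while none fell in ventral skin, and the ventral change was the higher one for 20 genes against dorsal skin and 19 against chin skin. Col1a1 had means of 1640 and 298 FPKM in dorsal early and mid anagen and 696 and 239 FPKM in chin, beside 644 and 1370 FPKM in ventral skin. Its change was higher in ventral skin by 3.54 (SE 0.15) and 2.62 (SE 0.16). Unlike the cell cycle genes, the domains were far apart in mid anagen here. Skeletal muscle genes fell in dorsal skin too, with 25 of 26 lower and none higher. In chin skin only 3 of the 26 were lower and none higher, beside 10.3% lower over all genes.

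Vessel and nerve genes fell in all 3 domains. Endothelial genes were lower in 12 of 14 cases in dorsal skin and 8 in chin skin, and nerve genes in 9 and 6 of 10. Pecam1 changed by −1.27 and −0.75 there, and its difference from the ventral change was −0.59 against dorsal skin (SE 0.27, adjusted p = 0.115) and −1.11 against chin skin (SE 0.28, adjusted p = 0.022). Fos fell in each domain as well, by 1.75 and 2.73 on the log2 scale in dorsal and chin skin. Per1 differed, with changes of 0.27 and 0.55 that did not pass the test in dorsal and chin skin (adjusted p = 0.404 and 0.179) and a ventral change lower by 2.61 (SE 0.33) and 2.89 (SE 0.35).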

How the data were processed

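Whole ventral, dorsal and chin skin of C57BL/6 mice was profiled with SMART-seq2. Paired-end reads had been aligned to mm10 with a GENCODE annotation. The authors then obtained FPKM per gene with RSEM (version 1.2.25), and these FPKM are the deposited values. The study states that a batch correction was made without naming batches, and whether the deposited FPKM carry it is not given in the sources used here. The FPKM hold no read totals. From the spacing of low values, about 10541231 to 18959296 fragments per ventral library were estimated, so small differences in genes under 1 FPKM are not resolvable.

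FPKM were not counts, so log2(FPKM + 1) was fitted with limma 3.58.1 in R 4.3.3 (moderated test with a variance trend, Benjamini-Hochberg over all genes tested, threshold 0.05). Genes needed at least 0.5 FPKM in at least 2 libraries. The ventral fit used 5 libraries, and the comparison of domains used 14 libraries in 6 groups with interaction contrasts. The code was tested on simulated data. No column was left unassigned. Named genes were the 10 largest changes in each direction among called, non-overlapping genes with a group mean of at least 5 FPKM, any member of the WNT, BMP, hedgehog and growth factor lists, the 4 most abundant and 4 most changed members of other lists, and the 5 largest differences per direction and domain. Genes outside this rule were named after their values were seen. This is not said at each of them, as for members named only to complete a count of calls. The groups compared, the 41 gene lists and the rule were chosen with earlier results of these data known. Lists are described by counts and medians, with no test over lists. Promoter sequences came from RefSeq on GRCm38.p6. Alternatives covered the pseudocount, filters, scalings, a replicate block and leaving out each library. Python 3.11.15, numpy 2.4.6, pandas 2.3.3 and matplotlib 3.10.9 were used for promoters, depth and figures.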

Additional observations from a re-analysis of the deposited data

Results flagged for a closer look

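These results were picked out because the early to mid anagen change in ventral skin differed from that in another domain, by limma's test of the difference itself. There were 6590 such genes against dorsal skin and 3520 against chin skin. All rest on the 3 libraries labelled ventral early anagen, which lay with refractory telogen.

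Against dorsal skin, the change was higher in ventral skin by 5.41 for Hist1h2ae, a histone H2A gene with close copies, by 5.25 for Mest, an imprinted gene of growing tissues, by 4.9 for the mast cell protease Cma1, by 4.85 for Tceal7 and by 4.83 for Actc1, a muscle actin. Tceal7 and Actc1 were at or below 4.72 FPKM in all 5 ventral libraries, and had means of 19.2 and 19 FPKM in dorsal early anagen, with dorsal changes of −2.95 and −3.66. The change was lower in ventral skin by values of −9.18 for Krtap6-3, −8.19 for Krtap20-2, −7.29 for Krtap19-9b and −7.17 for Krtap16-3. For Krtap19-9b and Krtap16-3 the gene rose in both domains, from means of 2110 and 841 FPKM in ventral and 2.76 and 5.98 FPKM in dorsal early anagen. mt-Tc gave −9.43 (SE 3.27), but this mitochondrial transfer RNA gene is listed at 0 in 3 of the 5 ventral libraries.

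Against chin skin, the change was higher in ventral skin by 4.76 for Mlana, 4.33 for Sptssb, 4.3 for Hist1h2ae, 4.09 for Mest and 3.99 for Msx1. It was lower with values of −8.34 for Krtap20-2, −6.15 for Krtap6-3, −5.72 for Krt16, −5.08 for Wfdc3 and −4.78 for Krt84. Mest stood out in that its mid anagen mean in ventral skin, 31.8 FPKM, was far above those of dorsal (1.61 FPKM) and chin skin (1.28 FPKM), whereas Krt84 had like mid anagen means of 40.2, 33.1 and 42.4 FPKM in the 3 domains.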

How the results depend on the processing

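One limit is the labelled early anagen libraries, which lay with refractory telogen and without which nothing can be compared. With 3 against 2 libraries, leaving out a mid anagen library leaves 1 sample, assumed to vary like the others. No called gene changed sign and stayed called under any alternative. Calls in ventral skin numbered 6802 to 7493 with 1 library left out, and 8676 without keratin-associated and mitochondrial genes in the scale, chosen after seeing the data. Requiring at least 5 FPKM left 3391 lower calls, and a log2 change of at least 1 left 2410 calls, 1011 higher and 1399 lower. Deviations of same-numbered libraries from their group means correlated at 0.0888 and −0.0396. With 2 mid anagen libraries these deviations mirror each other, so the values cannot decide whether the numbers pair libraries. With the replicate number as a block, calls were 6625 in ventral skin, 4778 against dorsal and 2600 against chin skin, within 1.5 times the unblocked counts.

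With 1 library left out, calls lower in ventral than dorsal skin ranged from 1650 to 2901, the fewest without the second ventral mid anagen library. Against chin skin calls ranged from 1780 to 5464, with 1070 to 3293 higher and 710 to 2171 lower. List medians changed sign for companion and stress keratins (0.27, no filter), dermal papilla (0.09, quantile normalization), hedgehog (0.02, median of ratios, and 0.15, quantile normalization) and BMP ligands (−0.02 to 0.16 with 1 library left out). Among named genes, only Bmp2 and Bmp4 changed sign, neither of them called. Bmp2 gave −0.03 on TPM, −0.01 with the block and −0.01 to 0.03 with 1 library left out. Bmp4 gave 0.12 under the median of ratios, 0.02 with the block, −0.05 to 0.02 with 1 library left out, and 0 in the scale without keratin-associated and mitochondrial genes. Under the median of ratios or quantile normalization, Bmpr2, Boc, Cd14, Dhh, Dkk3, Egfr, Fgfr2, Gdf10, Grem1, Hbb-bs, Hoxa7, Id2, Igf2r, Smad1, Smad4, Sox9 and Wnt16 lost their calls. The cause of these moves was not tested.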

Other observations

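A few lists not described above add to the picture of ventral skin. Of 29 Hox genes, 2 rose, Hoxc13 (change 1.79) and Hoxb2 (1.38), and 6 fell, among them Hoxa7 with a change of −1.64. Genes named Rpl or Rps, 169 tested, were higher in 16 cases and lower in 45 (24 and 29 under the median of ratios). Their median was −0.13, the same as that of all genes. This list holds pseudogenes and kinases beside ribosomal protein genes.

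Red cell genes fell in 4 of 6 cases (2 under the median of ratios) and rose in none (median change −0.52). Hbb-bs, an adult β-globin, had 535, 495 and 506 FPKM in early anagen and 312 and 420 FPKM in mid anagen. Markers of simple and mammary epithelium were at low levels, with a summed level of 74.6 to 83.4 FPKM in early anagen and 51.6 to 54.3 FPKM in mid anagen. Of 9 tested, 2 rose, Upk1b (change 1.48) and Elf5 (1.4), and 5 fell. Krt19, a simple epithelial keratin that the bulge also makes, fell from 23.6, 24.2 and 25.7 FPKM to 3.72 and 3.24 FPKM (change −2.51, SE 0.09). Of 10 smooth muscle genes, 2 rose and 3 fell, shares close to those over all genes, and 3 rose and 2 fell under the median of ratios.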
